A study of Mus musculus with 12 samples.

Results

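The integrin and laminin subunit genes of mouse were followed through the first 2 days of reprogramming in fibroblasts. Members were chosen by gene symbol alone, and the rule itself uses no measured value, though the choice of these families was made with earlier results of these data known: symbols beginning Itga or Itgb with a number, Itgav, Itgae, Itgal, Itgam and Itgax, and symbols beginning Lama, Lamb or Lamc with a number. The rule gave 37 of the 23284 gene symbols, 26 of them integrin subunits (17 α and 9 β) and 11 laminin chains (5 α, 3 β and 3 γ). Expression was tested for 31 of the 37, those with at least 1 RPKM (reads per kilobase of gene, scaled to library depth) in at least 2 of the 12 libraries.

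Integrins are receptors made of an α and a β subunit that span the cell membrane, bind proteins of the extracellular matrix outside the cell and connect to the actin or keratin cytoskeleton inside it. The β1 subunit pairs with many α subunits, αV pairs with several β subunits, and α6 pairs with β4 in the hemidesmosomes that fasten epithelial cells to the basement membrane. Laminins are trimers of an α, a β and a γ chain and are the main adhesive proteins of basement membranes, where integrins such as α3β1, α6β1, α7β1 and α6β4 bind them. Fibroblasts are known for receptors of fibronectin and fibrillar collagen, and epithelial cells for receptors of laminin.

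The study asked how Myc and the SAGA complex, whose acetyltransferase Gcn5 is encoded by Kat2a, act in early reprogramming. The cells were 2o 1B MEFs, secondary mouse embryonic fibroblasts in which doxycycline (dox) switches on introduced reprogramming factors, and total RNA depleted of ribosomal RNA was sequenced. There were 6 groups of 2 libraries, each siRNA (siMyc, siGcn5 and siControl) with and without dox. All cells had received an siRNA, and the dox groups had 2 days of dox. The labels mention siRNA pools as well as single siRNAs without tying either to these libraries, and they do not say whether the cells without dox had the same medium. A difference in medium was not tested, and as the labels name no separate cultures behind the replicates, the spread that each p-value rests on may be technical.

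The whole reads behind the RPKM values came to between 65.5 M and 188 M per library, both extremes being siMyc libraries with dox. The silenced genes followed their labels. Myc averaged 21.6 RPKM with siMyc and 165 RPKM with siControl in dox, and 4.69 RPKM with siMyc and 19.6 RPKM with siControl without dox. Kat2a averaged 7.69 RPKM with siGcn5 and 54.4 RPKM with siControl in dox, and 1.65 RPKM with siGcn5 and 21.9 RPKM with siControl without dox. Each knockdown also came with lower mRNA of the other gene. Kat2a was 18.8 RPKM in siMyc with dox, against 54.4 RPKM in siControl with dox, and was not called between siMyc and siControl without dox (adjusted p = 0.129, limma). Myc was lower in siGcn5 both times, at 116 RPKM in siGcn5 with dox, against 165 RPKM in siControl with dox (adjusted p = 0.0464), and at 8.20 RPKM in siGcn5 without dox, against 19.6 RPKM in siControl without dox (adjusted p = 0.000613). Oct4 mRNA (Pou5f1) averaged 110 RPKM in siMyc, 169 RPKM in siGcn5 and 268 RPKM in siControl with dox, so the arms differed in a reprogramming factor itself. All 12 fibroblast markers reached 1 RPKM in some library.

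Per length, the integrin mRNA of siControl cells without dox was dominated by Itgb1 and Itga5, which encode the subunits of the fibronectin receptor α5β1. Itgb1 stood at 673 and 681 RPKM in the 2 libraries and Itga5 at 234 and 219 RPKM. They were followed by Itgb5 at 136 and 144 RPKM, Itgav at 56.7 and 47.9 RPKM, and the fibrillar collagen receptor Itga11 at 45.8 and 44.8 RPKM. Itgb1 made up 81.7% of the summed RPKM of the 9 β subunits and Itga5 61.3% of that of the 17 α subunits (means of 2 libraries). Among laminin chains the order was Lamb1 (90.2 RPKM on average), Lamb2 (36.1), Lamc1 (33.4), Lama5 (11.3), Lama4 (9.76) and Lama2 (4.07). The neighbouring pairs Lamb2 and Lamc1, and Lama5 and Lama4, lay close together, and all other laminin chains averaged under 1.5 RPKM there. The 6 members that were not tested were Itgae, the partner of β7 in mucosal T cells (0.0159 to 0.0509 RPKM over the 12 libraries), Itgax (0 to 0.0303), the leukocyte subunit Itgb2 (0.0283 to 0.361), Itgb2l (0 in every library), and the epithelial and neural αV partners Itgb6 (0.0159 to 0.211) and Itgb8 (0.0636 to 0.287).

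Promoter windows of 300 bases, 250 before and 50 after the annotated start, were taken from RefSeq on GRCm38.p6 and matched 24 of the 37 members in 27 windows. The windows of 3 members that the results turn on are printed, with GC boxes in capitals. Itgb1 and Itga5 are abundant subunit mRNAs that fell with dox in siControl cells, and Lamb3 is a laminin chain mRNA that rose. The Itgb1 window is chr8:128685404-128685703 on the + strand, the Itga5 window is chr15:103366742-103367041 on the − strand, and the Lamb3 window, the upstream of 2 annotated starts, is chr1:193301744-193302043 on the + strand.
Itgb1: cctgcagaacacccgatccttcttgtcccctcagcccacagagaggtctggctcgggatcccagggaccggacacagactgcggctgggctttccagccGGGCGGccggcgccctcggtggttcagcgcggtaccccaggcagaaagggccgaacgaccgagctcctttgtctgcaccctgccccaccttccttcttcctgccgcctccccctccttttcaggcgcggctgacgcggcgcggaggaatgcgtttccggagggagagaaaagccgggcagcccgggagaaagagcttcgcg
Itga5: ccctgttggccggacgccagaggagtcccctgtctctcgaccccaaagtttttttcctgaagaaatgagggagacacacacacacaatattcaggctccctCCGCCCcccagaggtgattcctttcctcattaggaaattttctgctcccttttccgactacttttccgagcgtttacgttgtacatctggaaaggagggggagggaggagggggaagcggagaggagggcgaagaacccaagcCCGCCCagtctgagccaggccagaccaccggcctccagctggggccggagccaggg
Lamb3: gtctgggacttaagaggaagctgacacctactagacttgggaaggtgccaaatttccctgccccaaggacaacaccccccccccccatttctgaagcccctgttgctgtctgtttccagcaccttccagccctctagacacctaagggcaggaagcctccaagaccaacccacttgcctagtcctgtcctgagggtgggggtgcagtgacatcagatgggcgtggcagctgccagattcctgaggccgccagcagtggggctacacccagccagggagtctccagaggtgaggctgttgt
Both strands were searched for 4 motifs. The GC box GGGCGG was found once in the Itgb1 window and in 2 places in the Itga5 window, in 12 of the 27 members' windows, and in 35.7% of all 32851 promoter windows. The E-box CACGTG, the motif bound by Myc with Max, was in 0 of the 27 members' windows and in 7.15% of all windows. The AP-1 motif TGANTCA was in 3 member windows, those of Itga3, Itga9 and Itgax, and in 7.81% of all windows, and the TATA box TATAAA was in 0 member windows and in 13.6% of all windows. A match is a run of letters in this window and is no evidence of binding. The 3 windows printed held no E-box, AP-1 or TATA box match, and the Lamb3 window held no GC box.

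With dox in siControl cells, the integrin subunits Itgb1, Itga5, Itga11, Itgb5 and Itgav fell, and Itgb4, Itga6, Itgb7 and the laminin chain Lamb3 rose. Of the 31 tested members 12 rose and 15 fell (limma on log2(RPKM + 1) over all 13175 genes tested, adjusted p under 0.05). Of all genes tested, 46.1% were called higher and 27.9% lower in the same comparison, and the member median of -0.15 on the log2 scale stood beside 0.17 for all genes. Of all calls 62.3% were higher, but 52.2% with median-ratio scaling, which moves the median of all genes to 0.03, and 49.9% with quantile normalization, and the members then split into 12 higher and 15 lower, and 10 higher and 16 lower. Among the 20 tested integrins 5 rose and 12 fell, and among the 11 laminins 7 rose and 3 fell. The difference between the families was not tested. These are mRNA levels in bulk cultures, in which fewer cells of a type and less RNA per cell cannot be told apart.

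Itgb1 was 315 and 316 RPKM with dox in siControl cells, against 673 and 681 RPKM without dox, and fell by 1.10 on the log2 scale (SE 0.09, adjusted p = 1.83e-06). Its partner Itga5 was 97.2 and 75.7 RPKM with dox, against 234 and 219 RPKM without dox, a log2 change of -1.39 (SE 0.14, adjusted p = 8.83e-06). Itga11 was 6.57 and 6.07 RPKM with dox, against 45.8 and 44.8 RPKM without dox. In each case both dox libraries lay below both libraries without dox. Itgb5, a β partner of αV that binds vitronectin, was 65.9 and 60.3 RPKM with dox, against 136 and 144 RPKM without dox, and fell by 1.14 on the log2 scale (adjusted p = 8.16e-05). Itgb3, the β subunit of the classical vitronectin receptor, was 5.02 and 4.65 RPKM with dox, against 10.7 and 10.9 RPKM without dox (log2 change -1.01, adjusted p = 5.9e-05). Itgav itself was 28.0 and 25.6 RPKM with dox, against 56.7 and 47.9 RPKM without dox (log2 change -0.94, adjusted p = 2.12e-05). So αV and its partners β3 and β5 were all lower with dox. The collagen receptor Itga1 was 0.883 and 0.832 RPKM with dox, against 4.23 and 3.92 RPKM without dox, and Itga8, a receptor subunit for nephronectin and fibronectin, was 2.96 and 2.97 RPKM with dox, against 8.69 and 8.44 RPKM without dox. Itga7, the laminin receptor subunit best known from muscle, was 4.50 and 4.52 RPKM with dox, against 6.76 and 8.19 RPKM without dox (log2 change -0.62, adjusted p = 0.0028). Itga2, Itga2b and Itga9 also fell, with changes of -0.58, -0.42 and -0.33 on the log2(RPKM + 1) scale, which understates changes at such low levels. Itga2 averaged 0.300 RPKM with dox and 0.951 RPKM without dox, 68.4% lower.

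The rises with dox were led by Itgb4, the hemidesmosome β subunit. It was 53.9 and 48.0 RPKM with dox in siControl cells, against 0.645 and 0.541 RPKM without dox, which is 85.9-fold between the mean RPKM values and a log2 change of 5.03 (SE 0.13, adjusted p = 1.34e-09). Its only known α partner, Itga6, was 24.7 and 25.6 RPKM with dox, against 8.67 and 6.85 RPKM without dox (log2 change 1.59, SE 0.15, adjusted p = 5.14e-06). The 2 partners thus both rose, from very unequal starting levels. Itgb7, known as the β subunit of lymphocyte homing receptors, was 5.17 and 5.47 RPKM with dox, against 0.383 and 0.448 RPKM without dox (log2 change 2.16, adjusted p = 1.13e-06). Its 2 known α partners stayed low: Itga4 averaged 0.898 RPKM with dox and 1.10 RPKM without dox and was not called (adjusted p = 0.25), and Itgae did not pass the filter. The leukocyte subunits Itgal and Itgam were called higher with dox at group means of at most 0.310 RPKM in siControl cells.

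Beside these changes, the epithelial markers, 10 of 12 of which reached 1 RPKM, summed to 599 and 526 RPKM with dox in siControl cells, against 21.1 and 17.9 RPKM without dox. Most of that sum was Krt14, at 334 RPKM on average with dox and 0.060 RPKM without dox, and Krt8, at 125 RPKM with dox and 0.674 RPKM without dox, whereas Krt5 and Epcam averaged 0.534 and 1.14 RPKM with dox. The fibroblast markers summed to 3771 and 3345 RPKM with dox, against 11109 and 11013 RPKM without dox. Their part in the integrin changes was not tested. Leukocyte markers, 3 of 9 of which reached 1 RPKM, were higher in sum with dox in each arm. They summed to 9.82 and 8.88 RPKM with dox in siControl cells, against 5.84 and 6.21 RPKM without dox, to 13.3 and 12.1 RPKM with dox in siMyc cells, against 8.25 and 7.64 RPKM without dox, and to 7.80 and 8.29 RPKM with dox in siGcn5 cells, against 3.73 and 4.40 RPKM without dox. In siControl cells Cd68 averaged 4.89 RPKM with dox and 2.01 RPKM without dox, and Laptm5 2.61 RPKM with dox and 0.312 RPKM without dox, while over all libraries Ptprc was at most 0.149 RPKM and Cd3e was at 0. Cd53, which also reached 1 RPKM, went the other way in siControl cells, at 0.777 RPKM with dox and 2.19 RPKM without dox. Csf1r was likewise lower there, at 0.312 RPKM with dox and 0.656 RPKM without dox. Neural markers, 2 of 5 of which reached 1 RPKM, summed to 153 and 147 RPKM with dox in siControl cells, against 23.4 and 22.3 RPKM without dox, most of it Tubb3. Endothelial markers, 3 of 8 of which reached 1 RPKM, summed to 9.39 and 10.3 RPKM with dox in siControl cells, against 3.27 and 2.77 RPKM without dox, with Tek at 8.11 RPKM with dox and 0.0396 RPKM without dox on average. Kdr and Emcn, which also reached 1 RPKM, were lower with dox in siControl cells. They averaged 0.830 and 0.290 RPKM with dox, against 1.37 and 1.38 RPKM without dox. The part of these markers in the values of Itgal, Itgam, Itgb7, Lama4 and the other members was not tested. The calls of Itga2b, Itga9 and Itgal ended, with adjusted p between 0.0528 and 0.176, when siControl without dox replicate 1, siControl without dox replicate 2 or siControl with dox replicate 2 was left out, and those of Itgal and Itgam ended with quantile normalization (adjusted p = 0.912 and 0.856).

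**Figure D1:**
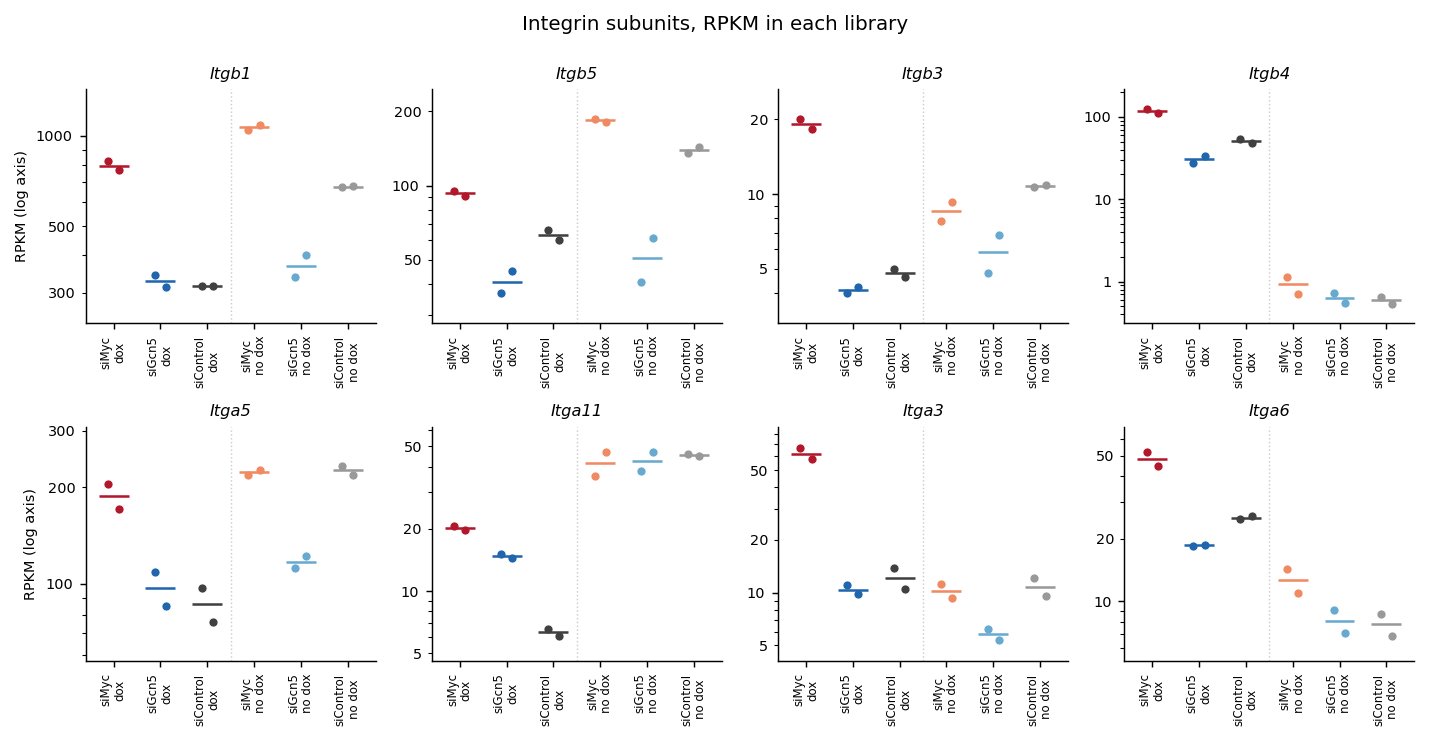
RPKM of 8 integrin subunits (y axis, log scale) in each of the 6 groups (x axis), with points for the 2 libraries of a group and lines for their mean; the dotted line separates groups with and without dox. Itgb4 lies between 27.5 and 125 RPKM in the 6 dox libraries and at most 1.15 RPKM in the 6 others, and Itga3 stands at 66.6 and 57.5 RPKM in siMyc with dox, against at most 13.7 RPKM elsewhere.

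Laminin chains moved in both directions with dox in siControl cells. Lamb3, a β chain of epithelial basement membranes, was 3.70 and 3.49 RPKM with dox, against 0.245 and 0.146 RPKM without dox (log2 change 1.94, SE 0.17, adjusted p = 3.26e-06). Lama3, an α chain of epithelial basement membranes, averaged 1.77 RPKM with dox and 0.109 RPKM without dox (log2 change 1.32). Both were low in level and called higher. Lama4, an α chain of mesenchymal and vascular basement membranes, was 13.1 and 15.2 RPKM with dox, against 9.65 and 9.87 RPKM without dox (log2 change 0.49, adjusted p = 0.000343). Lamc1, the γ chain of most laminins, averaged 46.1 RPKM with dox and 33.4 RPKM without dox (log2 change 0.45), and Lama1, the α chain of early embryonic laminin, 2.48 RPKM with dox and 0.363 RPKM without dox (log2 change 1.35). Lamc3 averaged 0.481 RPKM with dox and 0.0725 RPKM without dox. The falls were those of Lamb2, Lama2 and Lamb1. Lamb2 was 13.5 and 10.1 RPKM with dox, against 36.7 and 35.5 RPKM without dox (log2 change -1.55, adjusted p = 3.79e-06). Lama2, the α chain of muscle and nerve laminin, was 1.62 and 1.49 RPKM with dox, against 4.42 and 3.72 RPKM without dox (log2 change -0.98, adjusted p = 3.97e-05). Lamb1 averaged 64.9 RPKM with dox and 90.2 RPKM without dox (log2 change -0.47), and Lama5 averaged 14.0 RPKM with dox and 11.3 RPKM without dox and was not called (adjusted p = 0.134). Lama3 passed the filter only through the dox groups, Itgal and Lamc3 only through siMyc with dox, and Itgam only through siMyc and siGcn5 with dox. Such members had to differ between groups, and counts over the tested members are not independent of that.

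**Figure D2:**
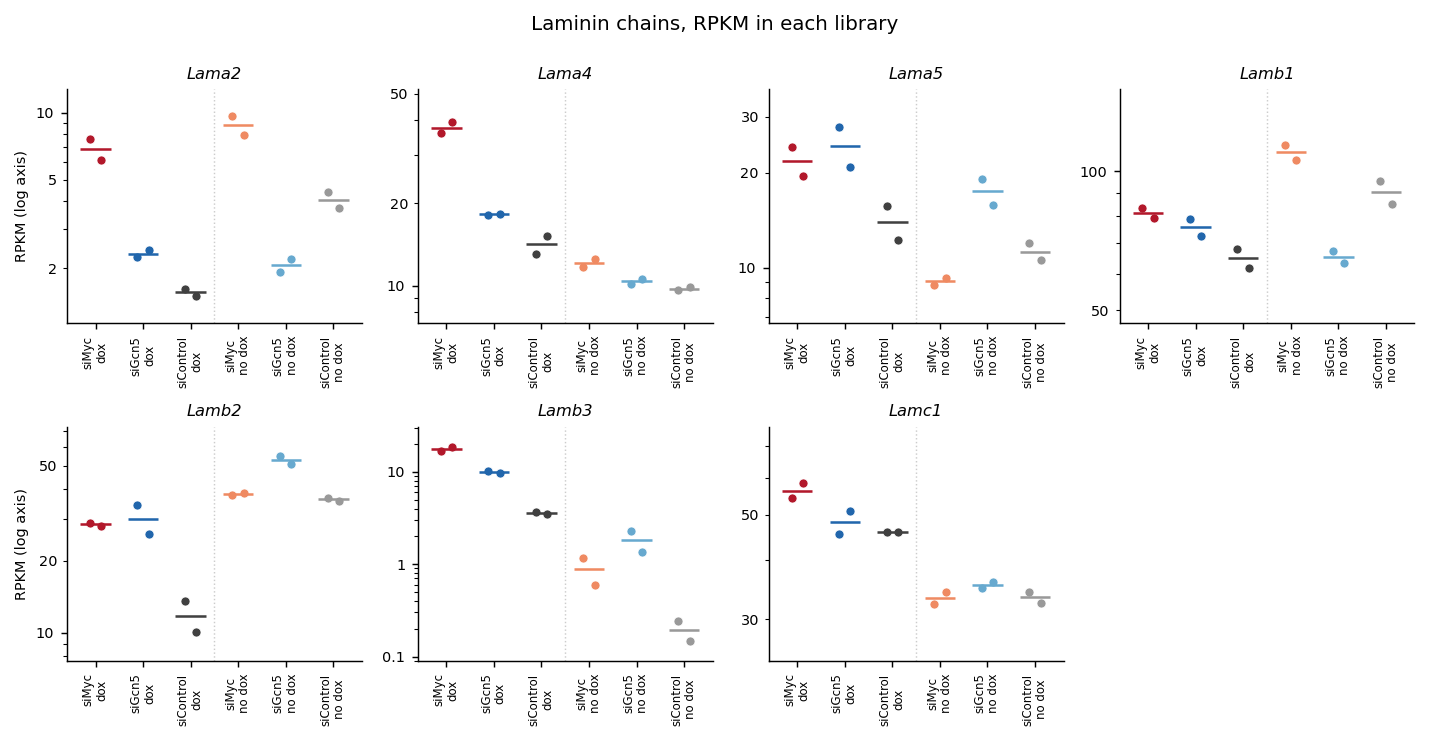
RPKM of 7 laminin chains (y axis, log scale) in each of the 6 groups (x axis), with points for the 2 libraries of a group and lines for their mean; the dotted line separates groups with and without dox. Lamb3 ranges between 0.146 RPKM in siControl without dox and 18.8 RPKM in siMyc with dox, and Lamb2 is at its lowest, 13.5 and 10.1 RPKM, in siControl with dox.

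In siMyc cells, dox raised 17 of the 31 tested members and lowered 8 (limma, adjusted p under 0.05), against 28.9% of all genes tested called higher and 15.9% lower, and the member median was 0.60 on the log2 scale beside 0.08 for all genes. In siGcn5 cells, 15 rose and 6 fell, against 36.0% of all genes higher and 22.4% lower, with a member median of 0.27 beside 0.08. With quantile normalization the share of higher calls among all calls was 40.2% in place of 64.5% for siMyc and 43.0% in place of 61.6% for siGcn5, and the members split into 16 higher and 11 lower, and 10 higher and 9 lower. The siControl, siMyc and siGcn5 arms share no library here. Itgb4, Itga6, Itgb7, Lamb3, Lama3, Lama4 and Lamc1 were called higher with dox in all 3 arms, and Itga11, Itga1, Itgav and Lamb2 lower. Itgb4 was 125 and 111 RPKM with dox in siMyc cells, against 1.15 and 0.705 RPKM without dox, and 27.5 and 33.6 RPKM with dox in siGcn5 cells, against 0.721 and 0.552 RPKM without dox. Its log2 changes were 5.95 in siMyc and 4.26 in siGcn5 cells (adjusted p = 2.27e-10 and 5.22e-09). Itga6 was 51.9 and 44.3 RPKM with dox in siMyc cells, against 14.3 and 10.9 RPKM without dox, and 18.5 and 18.6 RPKM with dox in siGcn5 cells, against 9.10 and 7.06 RPKM without dox.

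The abundant mRNAs of the α5 and β1 subunits fell less in siMyc and siGcn5 cells or were not called. Itga5 was 205 and 171 RPKM with dox in siMyc cells, against 219 and 226 RPKM without dox, and 109 and 85.4 RPKM with dox in siGcn5 cells, against 112 and 122 RPKM without dox. Neither difference was called (log2 changes -0.25 and -0.27, adjusted p = 0.18 and 0.119). Itgb1 was 825 and 767 RPKM with dox in siMyc cells, against 1048 and 1084 RPKM without dox, and fell by 0.42 on the log2 scale (adjusted p = 0.00285). In siGcn5 cells it was 344 and 313 RPKM with dox, against 339 and 399 RPKM without dox, which overlap (adjusted p = 0.134). Both laminin receptor subunits Itga3 and Itga7 and the vitronectin receptor subunit Itgb3 rose with dox in siMyc cells. Itga3, the α subunit of the laminin receptor α3β1, was 66.6 and 57.5 RPKM with dox in siMyc cells, against 11.2 and 9.36 RPKM without dox (log2 change 2.49, SE 0.15, adjusted p = 3.71e-07), and 11.1 and 9.77 RPKM with dox in siGcn5 cells, against 6.20 and 5.39 RPKM without dox (log2 change 0.75, adjusted p = 0.00189). Itgb3 was 20.0 and 18.3 RPKM with dox in siMyc cells, against 7.77 and 9.31 RPKM without dox (log2 change 1.08, adjusted p = 8.49e-05). Itga7 was 16.2 and 16.9 RPKM with dox in siMyc cells, against 9.55 and 11.7 RPKM without dox (log2 change 0.60, adjusted p = 0.00637). Lama5, an α chain of epithelial and vascular basement membranes, was 24.1 and 19.6 RPKM with dox in siMyc cells, against 8.81 and 9.29 RPKM without dox (log2 change 1.18, adjusted p = 0.000184). Lama4 was 36.0 and 39.3 RPKM with dox in siMyc cells, against 11.7 and 12.6 RPKM without dox (log2 change 1.55, adjusted p = 1.43e-07).

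Several smaller dox calls in these arms rested on single libraries. In siMyc cells the call of Itga7 ended without siMyc without dox replicate 1 (log2 change 0.47, adjusted p = 0.0582), as did that of Itga4 (adjusted p = 0.0564). Itga4 also ended without siMyc with dox replicate 2 (0.0577), Itgav without either library without dox or siMyc with dox replicate 2 (0.073 to 0.168), and Lamb2 without any 1 of the 4 libraries (0.0842 to 0.126). In siGcn5 cells Itgb3 was 4.00 and 4.25 RPKM with dox, against 4.81 and 6.87 RPKM without dox, and its fall of 0.40 on the log2 scale was -0.62 without siGcn5 without dox replicate 1 and -0.18 (adjusted p = 0.221) without siGcn5 without dox replicate 2. It also ended without either dox library (0.0604 and 0.0874). Lama5 in siGcn5 cells was 27.8 and 20.8 RPKM with dox, against 19.1 and 15.8 RPKM without dox, with a log2 change of 0.45 that was 0.24 (adjusted p = 0.243) without siGcn5 with dox replicate 1 and not called without siGcn5 without dox replicate 2 (0.197). Itga8 ended without siGcn5 with dox replicate 2 (0.0724), Itgav without that library (0.0852) or siGcn5 without dox replicate 1 (0.0617), Itgal without the second library of either group (0.0827 without dox, 0.113 with dox), and Itga4 without any 1 of the 4 (0.0548 to 0.135).

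The test of the difference between dox responses, the interaction term, was positive for 20 members and negative for 2 with siMyc against siControl, where 24.8% of all genes tested were called higher and 29.3% lower. With siGcn5 against siControl it was positive for 13 members and negative for 2, where 11.4% of all genes were called higher and 14.5% lower. The member medians were 0.65 and 0.45 on the log2 scale, beside -0.03 and -0.08 for all genes. Both interactions use the same siControl libraries, so each is given with its own values. Of all siMyc interaction calls 45.8% were positive, and 55.3% with median-ratio scaling, where 20 members were positive and 1 negative. Of all siGcn5 interaction calls 44.0% were positive, and 57.0% with median-ratio scaling, where 15 members were positive and 2 negative. For Itga11 the interaction was 1.67 with siMyc (SE 0.18, adjusted p = 7.64e-05) and 1.20 with siGcn5 (SE 0.18, adjusted p = 0.00326). For Itga5 it was 1.14 (adjusted p = 0.000961) and 1.12 (adjusted p = 0.00537), and for Itgb1 0.68 (adjusted p = 0.0013) and 0.94 (adjusted p = 0.00246). Itga3 had the largest member value with siMyc, 2.34 (SE 0.21, adjusted p = 3.79e-05), and with siGcn5 its value of 0.60 was not called (adjusted p = 0.0607).

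For low or strongly induced genes the interaction depended on the pseudocount. Itgb4 had 0.93 with siMyc (adjusted p = 0.00236), but 0.67 (0.0699) with a pseudocount of 0.1 and 0.58 (0.128) in a voom fit of the recovered reads, an alternative chosen after seeing the data. With siGcn5 its value of -0.76 (adjusted p = 0.0169) became -0.82 (0.0569) and -0.87 (0.0738), and the call also ended without siControl without dox replicate 2, siControl with dox replicate 1 or replicate 1 of either siGcn5 group (0.0544 to 0.0623). Lamb3 had 1.38 with siMyc (adjusted p = 0.000967), but 0.57 (0.269) with the smaller pseudocount and 0.12 (0.857) in the voom fit. It started at 0.600 to 1.18 RPKM in siMyc and at 0.146 to 0.245 RPKM in siControl cells without dox. The siGcn5 count of 15 members called was 8 without siControl without dox replicate 2 and 9 without siControl with dox replicate 2, while the calls over all genes tested were 1660 and 1731 in place of 3409. Itga7 ended without siControl without dox replicate 2 (0.0542), and the siGcn5 interaction calls of Itga8, Itgav, Itgb3, Itgb5 and Lamb2 each ended without at least 4 single libraries. Without siGcn5 without dox replicate 1, Itgb3 moved to 0.39 and was no longer called (adjusted p = 0.109), and Itgb5 moved to 0.55 and was still called (adjusted p = 0.0455).

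**Figure D3:**
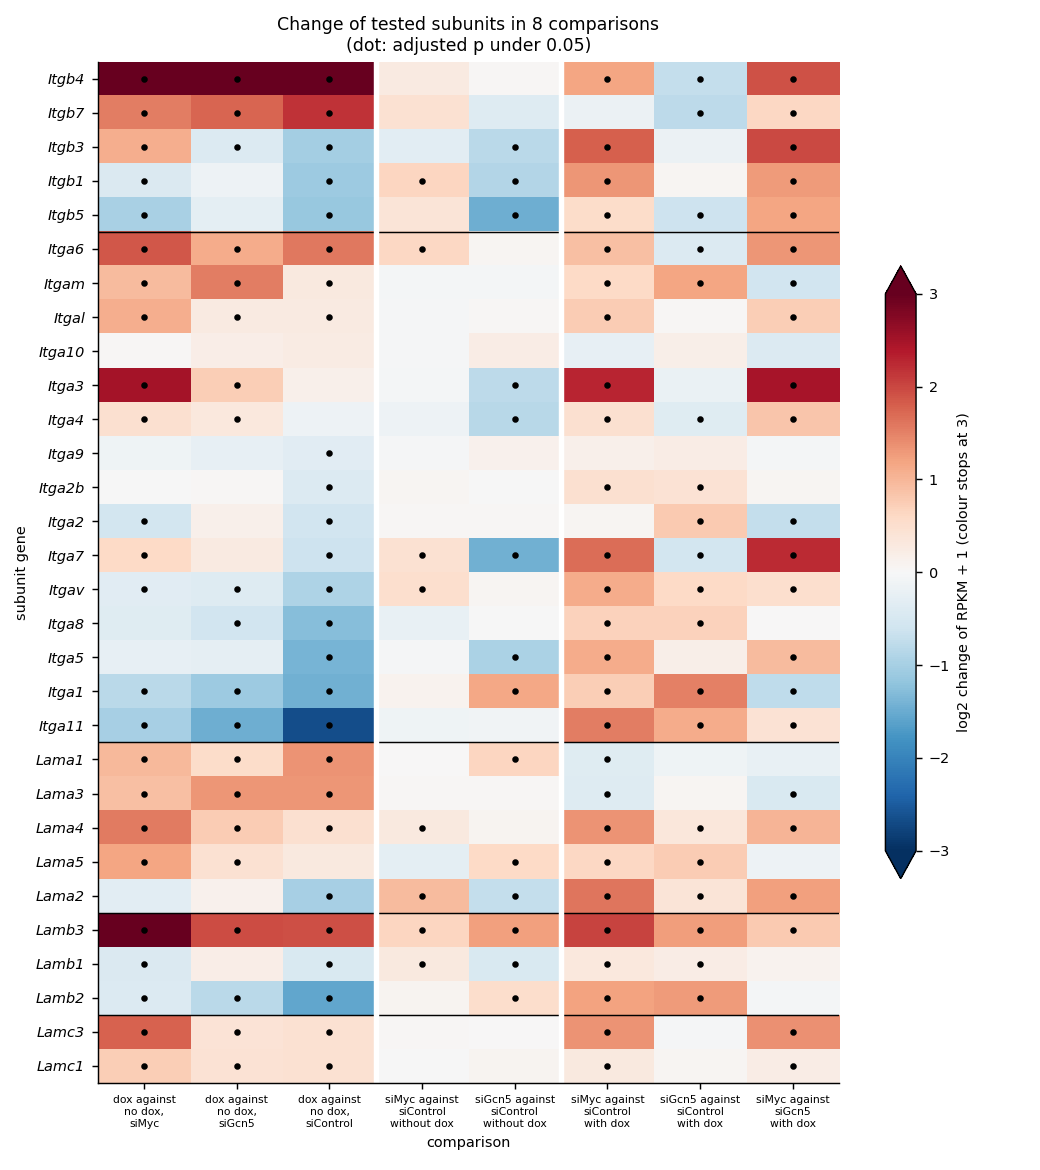
Log2 change of RPKM + 1 for tested subunits (rows, grouped as integrin β, integrin α, laminin α, laminin β and laminin γ) in 8 comparisons (columns), red for higher and blue for lower in the group named first; dots mark adjusted p under 0.05. In the siMyc against siControl column with dox most rows are red, led by Itga3 (2.28) and Lamb3 (2.03), and Lama1 (-0.36) and Lama3 (-0.39) are the blue rows with a dot.

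With dox, siMyc cells had higher mRNA than siControl cells for most members. Of the 31 tested, 25 were higher and 2 lower (limma, adjusted p under 0.05), against 37.7% of all genes tested called higher and 37.1% lower, and the member median was 0.75 on the log2 scale beside 0.02 for all genes. All 16 integrins called were higher. Itga3 was 66.6 and 57.5 RPKM in siMyc with dox, against 13.7 and 10.5 RPKM in siControl with dox, a log2 change of 2.28 (SE 0.15, adjusted p = 5.81e-07). Itgb3 was 20.0 and 18.3 RPKM in siMyc with dox, against 5.02 and 4.65 RPKM in siControl with dox (log2 change 1.79, adjusted p = 1.14e-06). Itga7 was 16.2 and 16.9 RPKM in siMyc with dox, against 4.50 and 4.52 RPKM in siControl with dox (log2 change 1.67, adjusted p = 2.72e-06). In these 3 subunits the siMyc libraries with dox were the highest of all 12. For Itgb1 the values were 825 and 767 RPKM in siMyc with dox, against 315 and 316 RPKM in siControl with dox (log2 change 1.33, SE 0.09, adjusted p = 5.77e-07). Itga5 stood at 205 and 171 RPKM in siMyc with dox, against 97.2 and 75.7 RPKM in siControl with dox (log2 change 1.12, adjusted p = 3.75e-05). Itga11 stood at 20.6 and 19.8 RPKM in siMyc with dox, against 6.57 and 6.07 RPKM in siControl with dox (log2 change 1.53, adjusted p = 1.99e-06). These 3 were lower with dox in siControl cells, and in siMyc cells with dox Itga11 still lay below all 6 libraries without dox. Itgav was 62.7 and 55.3 RPKM in siMyc with dox, against 28.0 and 25.6 RPKM in siControl with dox (log2 change 1.11, adjusted p = 5.75e-06).

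The members that dox itself raised were mostly higher still in siMyc cells. Itgb4 was 125 and 111 RPKM in siMyc with dox, against 53.9 and 48.0 RPKM in siControl with dox (log2 change 1.19, SE 0.13, adjusted p = 1.68e-05), and Itga6 51.9 and 44.3 RPKM in siMyc with dox, against 24.7 and 25.6 RPKM in siControl with dox (log2 change 0.90, adjusted p = 0.00026). Lamb3 was 16.7 and 18.8 RPKM in siMyc with dox, against 3.70 and 3.49 RPKM in siControl with dox (log2 change 2.03, SE 0.17, adjusted p = 2.32e-06). Lama3 went the other way and averaged 1.11 RPKM in siMyc with dox and 1.77 RPKM in siControl with dox and was lower (log2 change -0.39, adjusted p = 0.00163). Lama4 was 36.0 and 39.3 RPKM in siMyc with dox, against 13.1 and 15.2 RPKM in siControl with dox (log2 change 1.35, adjusted p = 4.12e-07). Lama2 was 7.62 and 6.11 RPKM in siMyc with dox, against 1.62 and 1.49 RPKM in siControl with dox (log2 change 1.62, adjusted p = 1.25e-06), and Lamb2 28.8 and 27.9 RPKM in siMyc with dox, against 13.5 and 10.1 RPKM in siControl with dox (log2 change 1.21, adjusted p = 1.91e-05). Lamc3, which passed the filter only through siMyc with dox, averaged 2.74 RPKM there and 0.481 RPKM in siControl with dox. Itgb7, at 5.12 and 4.06 RPKM in siMyc with dox against 5.17 and 5.47 RPKM in siControl with dox, was not called (adjusted p = 0.313).

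Over the same libraries the fibroblast markers summed to 6838 and 6759 RPKM in siMyc with dox, against 3771 and 3345 RPKM in siControl with dox, and the epithelial markers to 1321 and 1198 RPKM in siMyc with dox, against 599 and 526 RPKM in siControl with dox, so both sums were higher. The epithelial sum was mostly Krt14 (954 against 334 RPKM on average) and Krt8 (204 against 125 RPKM), and Krt18 was higher too. Other epithelial markers went the other way in siMyc with dox. Cdh1 averaged 5.05 against 17.0 RPKM and Cldn4 5.28 against 7.55 RPKM, and Epcam, Ocln and Esrp1 were also lower. Skeletal muscle markers, 3 of 6 of which reached 1 RPKM, summed to 267 and 259 RPKM in siMyc with dox, against 63.1 and 42.6 RPKM in siControl with dox, nearly all of it Acta1, with the muscle regulators Myod1 and Myog at most 0.0375 and 0.0865 RPKM in any library. The part of these markers in the values of Itga7, Lama2 and the other members was not tested. The calls of Itgb5 and Lama5 ended without siControl with dox replicate 2 (adjusted p = 0.0551 and 0.0597), and Lama5 also without siMyc with dox replicate 1 (0.0546). The other lower call, Lama1 (1.70 RPKM in siMyc with dox and 2.48 RPKM in siControl with dox), was -0.36 on the log2 scale and -0.20 (adjusted p = 0.24) without siControl with dox replicate 2. It also ended without siMyc with dox replicate 1 (0.128) or replicate 2 (0.0529), with a pseudocount of 0.1 (0.062), with no filter (0.0511) and with median-ratio scaling (0.0611). The call of Itga2b ended without that library (0.112) or siMyc with dox replicate 1 (0.134).

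With dox, siGcn5 cells differed from siControl cells in 20 of the 31 tested members, 14 higher and 6 lower (limma, adjusted p under 0.05), against 31.4% of all genes tested called higher and 24.9% lower. The member median was 0.17 on the log2 scale beside 0.05 for all genes. Of all calls 55.8% were higher, but 47.5% after median-ratio scaling and 48.65% after quantile normalization, and the members then split into 13 higher and 6 lower, and 11 higher and 7 lower. Those higher were 7 laminins and 7 integrins, and all 6 lower ones were integrins. Collagen receptor subunits were among the higher ones. Itga1 was 5.29 and 3.47 RPKM in siGcn5 with dox, against 0.883 and 0.832 RPKM in siControl with dox (log2 change 1.51, SE 0.14, adjusted p = 3.68e-05). Itga11 was 15.1 and 14.4 RPKM in siGcn5 with dox, against 6.57 and 6.07 RPKM in siControl with dox (log2 change 1.11, adjusted p = 9.82e-05). Itga2, an epithelial and platelet collagen receptor subunit, averaged 1.23 RPKM in siGcn5 with dox and 0.300 RPKM in siControl with dox (log2 change 0.78, adjusted p = 9.38e-05). These 3 α subunits each pair with β1, and Itgb1 itself, at 344 and 313 RPKM in siGcn5 with dox against 315 and 316 RPKM in siControl with dox, was not called (log2 change 0.06, SE 0.09, adjusted p = 0.595). Lamb2 was 34.2 and 25.8 RPKM in siGcn5 with dox, against 13.5 and 10.1 RPKM in siControl with dox (log2 change 1.28, adjusted p = 7.85e-05). Lamb3 was 10.1 and 9.71 RPKM in siGcn5 with dox, against 3.70 and 3.49 RPKM in siControl with dox (log2 change 1.25, adjusted p = 0.000235). Itgam, a myeloid subunit, passed the filter only through siMyc and siGcn5 with dox. It was at 1.93 and 1.99 RPKM in siGcn5 with dox, against 0.273 and 0.347 RPKM in siControl with dox. Its β partner Itgb2 was at most 0.361 RPKM.

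Among the lower members in siGcn5 with dox, Itgb4 was 27.5 and 33.6 RPKM, against 53.9 and 48.0 RPKM in siControl with dox (log2 change -0.72, SE 0.13, adjusted p = 0.00122). Itgb7 was 2.17 and 3.19 RPKM in siGcn5 with dox, against 5.17 and 5.47 RPKM in siControl with dox (log2 change -0.80, adjusted p = 0.00197). Itgb5 was 36.5 and 44.9 RPKM in siGcn5 with dox, against 65.9 and 60.3 RPKM in siControl with dox (log2 change -0.62, adjusted p = 0.00675). None of these groups overlapped between siGcn5 and siControl. The epithelial markers summed to 533 and 610 RPKM in siGcn5 with dox, against 599 and 526 RPKM in siControl with dox, and so overlapped. The fibroblast markers summed to 4858 and 4221 RPKM in siGcn5 with dox, against 3771 and 3345 RPKM in siControl with dox. That difference lay mostly in Col1a1 (1360 against 751 RPKM on average) and Col1a2 (849 against 484 RPKM). S100a4 (623 against 771 RPKM), Thy1 (57.2 against 61.6 RPKM) and Fap were lower in siGcn5 with dox. The count of 20 was 13 without siGcn5 with dox replicate 1, while the calls over all genes tested were 5122 in place of 7412. Without that library the calls of Itga7 (log2 change -0.46, adjusted p = 0.0597), Itgb5 (-0.48, 0.0615), Itga2b (0.19, 0.315), Itga4, Lama2 and Lamb1 ended, and that of Itga6, at 18.5 and 18.6 RPKM in siGcn5 with dox against 24.7 and 25.6 RPKM in siControl with dox, ended without any 1 of the 4 libraries (0.0804 to 0.128). Itga4, Lama2 and Lamb1 ended without siControl with dox replicate 2 as well (0.129, 0.106 and 0.238).

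Without dox, Itgb1, Itga5 and Itgb5 were lower in siGcn5 than in siControl cells. Of the 31 tested members 6 were higher and 9 lower than in siControl (limma, adjusted p under 0.05), against 36.9% of all genes tested called higher and 20.4% lower, with a member median of 0.02 on the log2 scale beside 0.11 for all genes. Of all calls 64.4% were higher, and 49.5% with median-ratio scaling, where 6 members were higher and 10 lower. Itgb1 was 339 and 399 RPKM in siGcn5 without dox, against 673 and 681 RPKM in siControl without dox (log2 change -0.88, SE 0.09, adjusted p = 3.5e-05). Itga5 was 112 and 122 RPKM in siGcn5 without dox, against 234 and 219 RPKM in siControl without dox (log2 change -0.95, adjusted p = 0.000296). Itgb5 was 40.8 and 61.2 RPKM in siGcn5 without dox, against 136 and 144 RPKM in siControl without dox (log2 change -1.46, adjusted p = 4.99e-05). In siControl cells with dox the same subunits stood at 315 and 316, 97.2 and 75.7, and 65.9 and 60.3 RPKM. Itga7 was 1.69 and 2.54 RPKM in siGcn5 without dox, against 6.76 and 8.19 RPKM in siControl without dox (log2 change -1.45, adjusted p = 3.33e-05), Itgb3 4.81 and 6.87 RPKM against 10.7 and 10.9 RPKM in siControl without dox (log2 change -0.80), and Itga3 6.20 and 5.39 RPKM against 12.1 and 9.52 RPKM in siControl without dox (log2 change -0.79). Itga4, an α subunit for fibronectin and VCAM1, averaged 0.186 RPKM in siGcn5 without dox and 1.10 RPKM in siControl without dox. Itga11, at 37.9 and 47.0 RPKM in siGcn5 without dox against 45.8 and 44.8 RPKM in siControl without dox, and Itgav, at 56.2 and 52.5 RPKM in siGcn5 against 56.7 and 47.9 RPKM in siControl without dox, were not called and overlapped. The higher members were Itga1, at 10.9 and 9.77 RPKM in siGcn5 without dox against 4.23 and 3.92 RPKM in siControl without dox (log2 change 1.16, adjusted p = 9.79e-05), and 5 laminin chains. Lamb3 was 2.31 and 1.36 RPKM in siGcn5 without dox, against 0.245 and 0.146 RPKM in siControl without dox (log2 change 1.23, adjusted p = 0.000207), and Lamb2 54.9 and 50.7 RPKM in siGcn5 without dox, against 36.7 and 35.5 RPKM in siControl without dox (log2 change 0.54, adjusted p = 0.00748). Lama2 and Lamb1 were the 2 lower laminin chains, with log2 changes of -0.73 and -0.46. The call of Lamb2 ended without siGcn5 without dox replicate 1 (adjusted p = 0.0533), and that of Lama5 (17.5 RPKM in siGcn5 and 11.3 RPKM in siControl without dox) without that library (0.0849) or siControl without dox replicate 2 (0.0705).

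Without dox, siMyc moved fewer members, and every call was upward: 9 higher and 0 lower of 31 by limma, against 12.8% of all genes tested called higher and 10.7% lower, with a member median of 0.04 on the log2 scale beside 0.02 for all genes. At an unadjusted p under 0.05, 11 members were higher and 1 lower, and in a voom fit of the recovered reads 10 were higher and 1 lower. Itgb1 was 1048 and 1084 RPKM in siMyc without dox, against 673 and 681 RPKM in siControl without dox (log2 change 0.65, SE 0.09, adjusted p = 0.00124). Lama2 was 9.68 and 7.92 RPKM in siMyc without dox, against 4.42 and 3.72 RPKM in siControl without dox (log2 change 0.95, SE 0.12, adjusted p = 0.00105). These 2 calls held when any single library was left out. The count of 9 was 5 without siControl without dox replicate 1, 3 without siControl without dox replicate 2 and 3 without siMyc without dox replicate 1, while the calls over all genes tested were 1264, 1386 and 1068 in place of 3098. Lamb3, at 1.18 and 0.600 RPKM in siMyc without dox against 0.245 and 0.146 RPKM in siControl without dox, had a log2 change of 0.64 (adjusted p = 0.0212) that was 0.42 (adjusted p = 0.181) without siMyc without dox replicate 1. Itga6, Itgav, Lamb1, Lama4 and Itga7, with log2 changes between 0.28 and 0.63, each lost their call without at least 2 of these 4 libraries. Itga5 was 219 and 226 RPKM in siMyc without dox, against 234 and 219 RPKM in siControl without dox, and was not called (adjusted p = 0.933).

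Set against each other with dox, siMyc cells had 18 members higher and 5 lower than siGcn5 cells (limma, adjusted p under 0.05), against 27.3% of all genes tested called higher and 38.6% lower, and a member median of 0.51 on the log2 scale beside -0.09 for all genes. Of all calls 41.4% were higher, and 53.6% with median-ratio scaling, where 19 members were higher and 5 lower. The log2 changes here rest on the knockdown libraries alone, while the p-values use a spread estimated from all 12 libraries. Itga3, Itga7, Itgb3, Itgb4 and Itgb1 had log2 changes of 2.46, 2.23, 1.98, 1.92 and 1.27, each with both siMyc libraries above both siGcn5 libraries. Lamc3, Itga6, Lama2, Itgb5 and Lama4 were also higher, with log2 changes of 1.38, 1.32, 1.23, 1.18 and 1.01. Lamc3 passed the filter only through siMyc with dox, so its call is not independent of the filter. Itga1 and Itga2 ran the other way: Itga1 was 2.20 and 2.04 RPKM in siMyc with dox, against 5.29 and 3.47 RPKM in siGcn5 with dox (log2 change -0.77, adjusted p = 0.000729), and Itga2 averaged 0.358 RPKM in siMyc with dox and 1.23 RPKM in siGcn5 with dox (log2 change -0.71). Itgam and Lama3 were lower too, with log2 changes of -0.58 and -0.45. Lamb2, at 28.8 and 27.9 RPKM in siMyc with dox against 34.2 and 25.8 RPKM in siGcn5 with dox, was not called and overlapped (log2 change -0.07, SE 0.14). The calls of Itga11 (0.43) and Itgb7 (0.61) ended without siMyc with dox replicate 1 (adjusted p = 0.0578 and 0.0571), Itga11 also without siGcn5 with dox replicate 2 (0.0527) and Itgb7 without siGcn5 with dox replicate 1 (0.0538), and that of Lamc1 (0.22) was 0.14 (adjusted p = 0.161) without siGcn5 with dox replicate 1 and ended without siMyc with dox replicate 2 (0.147).

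The members not yet given by library stayed within narrow or low ranges. Lamc1 had group means between 33.2 RPKM in siMyc without dox and 56.3 RPKM in siMyc with dox, and Lamb1 between 64.9 RPKM in siControl with dox and 110 RPKM in siMyc without dox. Both Lama1 and Lama3 were highest with dox, at up to 2.48 and 1.88 RPKM. Itga9, a subunit that binds tenascin and osteopontin, lay between 1.96 and 3.11 RPKM, Itga4 between 0.186 and 1.63 RPKM, and the platelet subunit Itga2b between 0.606 and 1.24 RPKM. Itga10, a cartilage collagen receptor subunit, lay between 0.638 and 1.30 RPKM and was called in none of the 10 comparisons. Itgal, a leukocyte subunit, reached 1.02 and 1.25 RPKM in siMyc with dox and at most 0.343 RPKM in the other 10 libraries.

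The make-up of each family also shifted. Itgb4 made up 11.4% of the summed β subunit RPKM in siMyc with dox, 7.52% in siGcn5 with dox and 11.6% in siControl with dox, and at most 0.152% in any group without dox (means of 2 libraries). The ratio of Itgb4 to Itga6 RPKM averaged 2.45 ± 0.063 in siMyc with dox, 1.64 ± 0.22 in siGcn5 with dox and 2.03 ± 0.22 in siControl with dox, against 0.0725, 0.0787 and 0.0767 without dox in the same arms (SD, n = 2 each). Before dox the 3 arms thus had nearly the same ratio, and after dox all 6 libraries held more β4 than α6 mRNA per length. The summed β subunit RPKM was 445 and 434 in siControl with dox, against 821 and 837 in siControl without dox. In siMyc it was 1070 and 991 with dox, against 1245 and 1276 without dox, and in siGcn5 415 and 400 with dox, against 385 and 468 without dox, which overlap. With dox, the ratio of Itgb5 to Itgav averaged 1.00 ± 0.27 in siGcn5 cells, against 2.35 ± 0.00089 in siControl cells. Without dox it averaged 0.947 ± 0.31 in siGcn5 cells, against 2.70 ± 0.43 in siControl cells (SD, n = 2 each), so siGcn5 had the lower ratio both times. Among laminin β chains, Lamb3 made up 13.9% of the summed RPKM in siMyc with dox, 8.61% in siGcn5 with dox and 4.49% in siControl with dox, and 0.593%, 1.51% and 0.153% without dox in the same arms. Lama4 made up 54.5% of the laminin α RPKM in siMyc with dox, 37.4% in siGcn5 with dox and 41.8% in siControl with dox, and Lama5 was the most abundant α chain of both siGcn5 groups, at 49.5% with dox and 55.9% without dox. Lama5 was also the most abundant α chain of siControl without dox, at 44.0% against 38.3% for Lama4. In siControl with dox Lama5 held 41.1%.

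**Figure D4:**
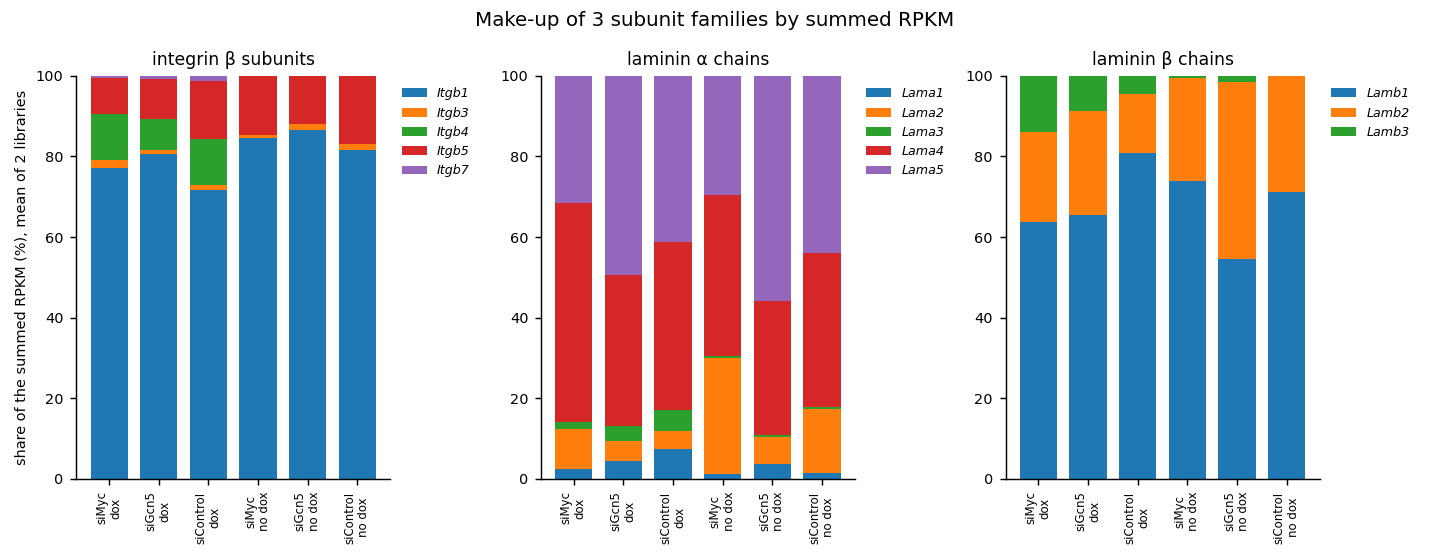
Share of the summed RPKM (y axis, %) of integrin β subunits, laminin α chains and laminin β chains held by each gene in the 6 groups (x axis), as means of 2 libraries; genes that stay at or under 0.1% in every group are not drawn. Itgb4 holds between 7.52% and 11.6% of the β subunits with dox, and Lamb3 13.9% of the laminin β chains in siMyc with dox, against 4.49% in siControl with dox.

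The genes that work with these receptors were read from 4 lists, which were drawn up with earlier results of these data known. As the share to set them beside, 46.1% of all genes tested were called higher and 27.9% lower with dox in siControl cells. With dox, 37.7% were higher and 37.1% lower in siMyc than in siControl, and 31.4% higher and 24.9% lower in siGcn5 than in siControl. Among 24 tested integrin adaptors, which join receptors to actin, 20 fell and 2 rose with dox in siControl cells, with a list median of -0.79 on the log2 scale beside 0.17 for all genes. The largest falls were Tgfb1i1 (Hic-5, -1.80), Lims2 (-1.60), Actn1 (α-actinin, -1.53) and Vcl (vinculin, -1.47). In siMyc with dox 17 of the 24 were higher and 2 lower than in siControl with dox, led by Lims2 (2.68), and in siGcn5 with dox 17 were higher, led by Lims2 (1.59) and Tln1 (talin, 0.97). Of 17 tested genes of the basement membrane list, 15 fell with dox in siControl cells (list median -1.13), the largest being Col18a1 (-1.99), Smoc2 (-1.62), the collagen IV chain Col4a5 (-1.58) and nidogen 1 (Nid1, -1.58). With dox, 15 of them were higher and 1 lower in siMyc than in siControl (Col4a5 1.83, Bcam 1.62, Agrn 1.60, Hspg2 1.47), and 12 were higher and 2 lower in siGcn5 than in siControl (Bcam 1.63, Col18a1 1.34). With dox in siControl cells, most genes of this list thus fell. Among the laminin chains, Lamc1, Lama4, Lama3 and Lamb3 were among those that rose, while Lamb1, Lamb2 and Lama2 fell.

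Of 20 tested integrin ligands outside the laminins, 18 fell and 1 rose with dox in siControl cells (list median -2.05 beside 0.17 for all genes). Over all genes tested, 46.1% were called higher and 27.9% lower there. Postn (periostin) fell by 3.42 on the log2 scale, Col1a1 by 2.37 and Col1a2 by 2.37, and the rise was Cdh1, the E-cadherin bound by αEβ7, at 4.16. Without dox, 12 of the 20 were lower and 2 higher in siGcn5 than in siControl, among them Spp1 (osteopontin, -1.81), Tnc (tenascin C, -1.65) and Tgfb1 (-1.63), with Icam1 higher (1.63). Over all genes tested, 20.4% were called lower and 36.9% higher in that comparison. In siGcn5 with dox 10 of the 20 were higher and 2 lower than in siControl with dox, led by Postn (2.04) and Fn1 (fibronectin, 1.65). The shares over all genes were 31.4% higher and 24.9% lower. Among the 5 tested hemidesmosome genes, the keratin Krt14 rose with dox in siControl cells by 8.30 on the log2 scale, while the plakin Plec (-0.36), the tetraspanin Cd151 (-0.29) and Erbb2ip (-0.60) fell. In siMyc with dox 4 of the 5 were higher than in siControl with dox, Krt14 at 954 RPKM and 334 RPKM on average, and in siGcn5 with dox 3 were higher. Over all genes tested, 37.7% were called higher in siMyc and 31.4% in siGcn5 in these comparisons. The comparisons with siControl in dox share the siControl libraries with the dox comparison in siControl cells, so the direction of one is not independent of the other.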

How the data were processed

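Total RNA of 12 libraries was sequenced after ribosomal RNA depletion with a stranded kit, per the labels' protocols. Each library has a table of RPKM values, as deposited, covering 23284 gene symbols. The build mm9 and the tools HTSeq, edgeR, affy, Bowtie 0.12.8 and TopHat2 2.0.9 are named in the submitters' processing notes without their roles. The annotation and the counting strand were not stated, so reads of overlapping or antisense genes cannot be told apart.

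Values were analysed as log2(RPKM + 1) with limma 3.58.1 in R 4.3.3 (trend, all 6 groups in one fit, 6 residual degrees of freedom). Genes with at least 1 RPKM in at least 2 libraries were tested, p-values were adjusted by Benjamini-Hochberg over all 13175 of them, and adjusted p under 0.05 was called. The pseudocount understates changes of low genes. Every fold change is the group named first over the second. The 12 libraries were given by the labels' siRNA and treatment.

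RPKM steps gave whole reads for 20787 of 20788 genes with a value (99.9952%, tolerance at most 0.05 of a read). Those reads gave the depths and a voom fit, added after seeing the data. The fit was tested on simulated data.

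Alternatives were a pseudocount of 0.1, no filter, a mean of at least 5 RPKM, median-ratio scaling, quantile normalization, a replicate block, a fit of the compared groups alone and leaving out each library. Values of 1 member are not reported here, though counts of members include it. The rule for members uses symbols alone, but the members and the gene lists were chosen with earlier results of these data known. Values in every library are given for tested members called in at least 1 comparison with a log2 change of at least 1 and a mean of at least 5 RPKM in the higher group, and other tested members by group means; of each list, up to 4 called genes of largest change are named. Promoter sequences are RefSeq's on GRCm38.p6, and no coordinate of the mm9 build was used.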

Additional observations from a re-analysis of the deposited data

Results flagged for a closer look

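Members whose dox response differed between a knockdown arm and siControl, by limma's test of the difference itself (adjusted p under 0.05), are listed with that difference on the log2 scale, the response with the knockdown minus the response in siControl. A positive difference can be a smaller fall as well as a larger rise. For Itga11 it was a smaller fall in both knockdown arms, and for Itgb1 in siMyc cells. No fall was called for Itga5 in either knockdown arm or for Itgb1 in siGcn5 cells. In siGcn5 without dox, Itga5 and Itgb1 already averaged 117 and 369 RPKM, against 226 and 677 RPKM in siControl without dox. With siMyc, 20 members had a positive difference: Itga3 (2.34), Itgb3 (2.10), Itga11 (1.67), Lamb3 (1.38), Lamc3 (1.30), Itga7 (1.22), Itga5 (1.14), Lamb2 (1.14), Lama4 (1.06), Itgb4 (0.93), Itga8 (0.91), Lama5 (0.89), Itgal (0.81), Itgb1 (0.68), Lama2 (0.67), Itga1 (0.65), Itgam (0.65), Itga4 (0.63), Itgav (0.60) and Lamc1 (0.29). The negative differences with siMyc were those of Lama3 (-0.42) and Itgb7 (-0.63). With siGcn5, 13 had a positive difference: Itgam (1.24), Itga11 (1.20), Itga5 (1.12), Lama2 (1.11), Itgb1 (0.94), Itga7 (0.89), Itgb5 (0.84), Itga2 (0.75), Lamb2 (0.74), Itga8 (0.70), Lamb1 (0.68), Itgb3 (0.61) and Itgav (0.54). The negative differences with siGcn5 were those of Itgb4 (-0.76) and Lama1 (-0.79). Both lists use the same 4 siControl libraries. Lamc3 and Itgal passed the filter only through siMyc with dox, and Itgam only through siMyc and siGcn5 with dox. Their differences are therefore not independent of the filter. The siMyc calls of Itgb4 and Lamb3 and the siGcn5 call of Itgb4 ended with a pseudocount of 0.1. The siMyc call of Itgb7 ended in 9 of 19 alternatives, among them median-ratio scaling (adjusted p = 0.0511, limma) and quantile normalization (0.0561). Leaving out 1 library ended the siMyc calls of Lamc1 and Itga1 in 6 and 4 cases, and that of Lama3 in 1. The siGcn5 call of Lama1 ended without siControl without dox replicate 2 (difference -0.71) or siControl with dox replicate 2 (-0.63).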

How the results depend on the processing

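Replicates are 2 per group, and changes of members near or under 1 RPKM depend on the pseudocount. Of 204 single calls of members, 151 were lost in none of the alternatives in which the member was tested (17 to 20, up to 12 of them leaving out 1 library). With a mean of at least 5 RPKM, which tests fewer members, the calls were 15 of 27 for dox in siControl, 15 of 25 for dox in siMyc, 12 of 21 for dox in siGcn5, 17 of 27 for siMyc and 12 of 20 for siGcn5 against siControl with dox, 14 of 22 for the siMyc interaction and 13 of 23 for siMyc against siGcn5. Leaving out 1 library gave 24 to 27 calls for dox in siControl, 20 to 25 in siMyc and 17 to 21 in siGcn5, 3 to 11 for siMyc and 13 to 16 for siGcn5 against siControl without dox, 22 to 27 for siMyc and 13 to 20 for siGcn5 with dox, 17 to 23 and 8 to 16 for the siMyc and siGcn5 interactions, and 20 to 23 for siMyc against siGcn5. With quantile normalization the dox changes in siGcn5 reversed for Itga4 (-0.0996), Itgal (-0.0922) and Lamc3 (-0.0381), all low genes, and the cause was not tested. The deviations of same-numbered libraries correlated at 0.0933 to 0.489 over 15 pairs of groups, above 0.1 in 14, so they tended to deviate together. As 1 pair fell short and the labels tie the numbers to no shared source, the numbers were not taken as pairing the samples. A replicate block gave 28, 26 and 24 calls for dox in siControl, siMyc and siGcn5, 9 and 15 for siMyc and siGcn5 without dox, 27 and 22 with dox, 23 and 19 for the interactions and 24 for siMyc against siGcn5, and it ended none of the 204 calls. It also raised the calls over all genes tested, such as 10373 in place of 9751 for dox in siControl and 5061 in place of 3409 for the siGcn5 interaction.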
